A study of Mus musculus with 18 samples.

Results

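Regulatory T cells (TR) with an active Id3 reporter were compared in the spleen between their effector and their central state. The comparison holds 6 of the 18 libraries of the study: 3 of Id3+ eTR and 3 of Id3+ cTR, taken by their labels and linked by the number of the mouse (84, 86 or 87) that gave both. The mice were C57BL/6 littermates that carry an Id3-GFP reporter crossed to a Foxp3-mRFP reporter, so both populations came from the same genotype, and their age is not stated in the labels used here. Id3+ eTR were sorted as Id3-GFP+ cells that were low for CD62L and high for CD44, and Id3+ cTR as Id3-GFP+ cells that were high for CD62L and low for CD44. Both were sorted on viability, CD4 and Foxp3-mRFP after enrichment of CD4+ T cells on magnetic beads. Each library was made from 500 sorted cells with a SMART-Seq v4 kit and a Nextera XT step. The other 12 libraries of the study are Id3- eTR from spleen and the same 3 populations from peripheral lymph node. A Foxp3 reporter marks TR as a whole, so each library is a mixture of all cells in its gate. In such bulk samples, fewer cells of a type and less RNA per cell cannot be told apart.

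TR restrain immune responses and depend on the transcription factor Foxp3. Central TR resemble resting T cells, which keep lymph node homing receptors such as CCR7 and recirculate through spleen and lymph nodes. Effector TR have met antigen, lower these receptors and take up receptors that lead to inflamed tissue or to the B cell follicle. Id3 and Id2 bind E proteins, the transcription factors encoded by Tcf3, Tcf12 and Tcf4, and keep them off the E-box DNA motif. Id3 is known to be lost from part of the TR pool as it becomes activated, which makes Id3+ eTR the effector cells that still hold it.

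The 6 libraries held 2439228 to 3153325 counts in Id3+ eTR and 1600782 to 2498377 counts in Id3+ cTR, with 14421 to 15045 and 13701 to 14164 genes detected. The Id3+ cTR libraries of mice 84 and 87 had the lowest totals, 1600782 and 1684461 counts. Mitochondrial transcripts made up 0.391% ± 0.0897 of counts in Id3+ eTR and 0.552% ± 0.115 in Id3+ cTR (SD, n = 3 each). The Id3+ eTR library of mouse 84 stood apart from its partners. Among 7174 genes with a mean of at least 5 log2 CPM (counts scaled to library size) in Id3+ eTR, 462 (6.44%) were at least 2-fold higher in it than in both other Id3+ eTR libraries, and 51 were at least 2-fold lower. The libraries of mice 86 and 87 were that far above both partners in 3 and 6 genes. The replicate variance between it and its partners was 22.2 and 22.3 times that expected from counting alone, against 6.62 for the other Id3+ eTR pair and at most 8.07 for any other replicate pair of the study. The 5 genes highest in it against the nearer partner were Pold1, Arap1, Ephb6, Mfn2 and Atp13a2. Pold1, the catalytic subunit of a replicative DNA polymerase, stood at 156 CPM in it and at 23.2 and 25.3 CPM in the Id3+ eTR of mice 86 and 87, against 24.4 to 40.3 CPM in Id3+ cTR. The 5 lowest were Tatdn1, Taf15, Zfp873, Mipol1 and Actg2. Counts of calls without this library are given below. Libraries left out are written by state and mouse, so that cTR 87 stands for Id3+ cTR from mouse 87.

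**Figure D1:**
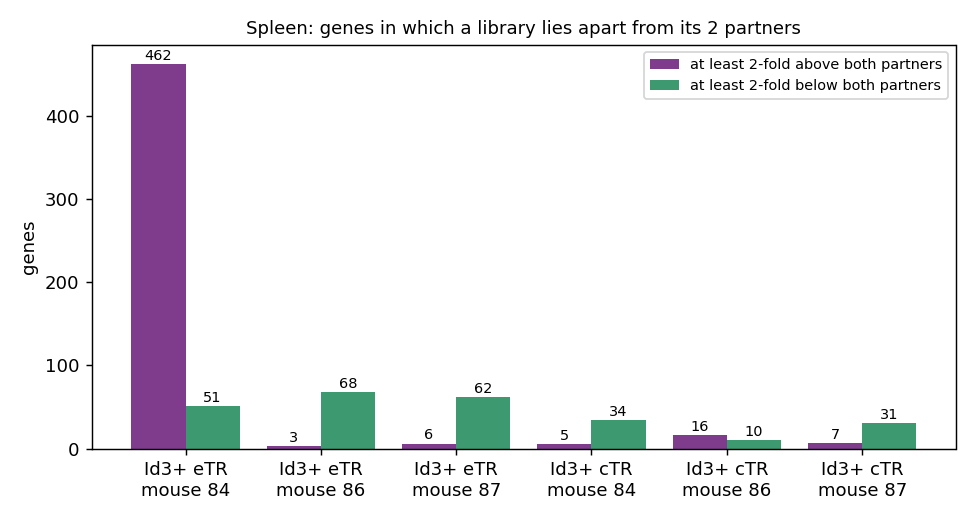
Number of genes (y axis) in which each spleen library (x axis, 3 Id3+ eTR then 3 Id3+ cTR) lay at least 2-fold above both partners of its group (purple) or at least 2-fold below both (green), among genes with a group mean of at least 5 log2 CPM. Library eTR 84 was above both partners in 462 genes, and no other library in more than 16.

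Of 12445 genes tested, 538 (4.32%) differed between Id3+ eTR and Id3+ cTR at an adjusted p under 0.05 (edgeR's quasi-likelihood F test, Benjamini-Hochberg). In Id3+ eTR 365 genes (2.93%) were higher and 173 (1.39%) were lower. The 2 directions differed in size. The higher genes had a median log2 fold change of 1.90, with median levels of 58.4 CPM in Id3+ eTR and 16.0 CPM in Id3+ cTR, and 295 of them were at least 2-fold higher. The lower genes had a median of -0.54, with median levels of 233 CPM in Id3+ eTR and 341 CPM in Id3+ cTR, and 14 of them were at least 2-fold lower. The median over all genes tested was 0.05. The 2 groups did not overlap in 360 of the higher and all 173 of the lower genes. Over all genes tested they did not overlap in 10.8% with Id3+ eTR higher and 9.07% with Id3+ eTR lower, and since the called genes were picked by a small p, nothing is read from their count.

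Fewer of the lower than of the higher genes kept their call with single libraries left out. With each of the 6 libraries left out in turn, 168 of the 365 higher genes (46.0%) and 32 of the 173 lower genes (18.5%) were called every time. The lower genes also changed less, and a fit without a library holds fewer samples. These shares therefore do not show how far the calls rest on single libraries. Without eTR 84, 264 genes were higher and 81 lower. Without cTR 84 there were 250 and 51, without cTR 87 there were 216 and 40, and without cTR 86 there were 318 and 278. Without 3 libraries at once, eTR 84 as the one that stood apart and cTR 84 and cTR 87 as the shallowest, 66 genes were higher and 3 lower, with 1 Id3+ cTR library left whose spread was taken from the other groups. In the lower genes, cTR 86 was the lowest of its group in 138 of 173, and eTR 84 the lowest of its group in 129. Over all 12445 genes tested these numbers were 4235 and 5063. In the higher genes, eTR 84 was the highest of its group in 198 of 365, against 4959 of all genes tested. Of the 62 named genes that were called, limma-voom lost 24, the 6 libraries alone 29, and leaving out both libraries of mouse 84 or of mouse 87 lost 25 and 28. Losses given beside single genes below come from single libraries and from the mouse as a block, unless another alternative is named. A gene with no loss beside it may still have lost its call under another alternative. Of the 62 named genes that were called, 12 kept the call under all 17 alternatives. The part of library depth and mitochondrial share, which moved with these libraries, was not tested.

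**Figure D2:**
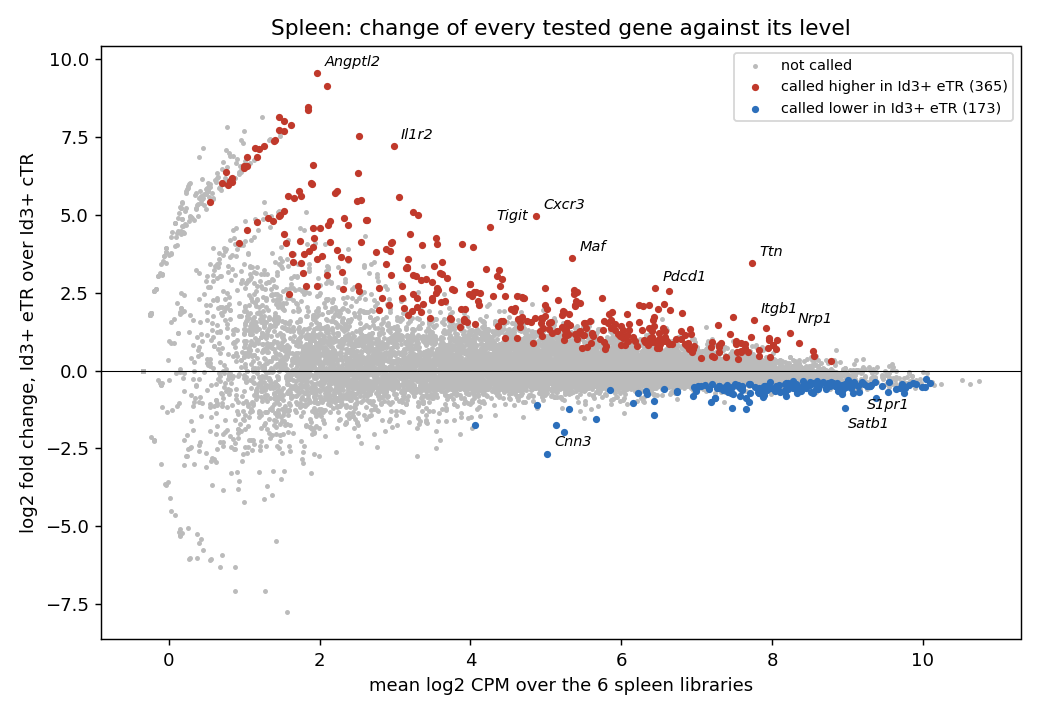
Log2 fold change of Id3+ eTR over Id3+ cTR in spleen (y axis) against mean log2 CPM over the 6 libraries (x axis) for 12445 genes. Red points are 365 genes called higher and blue points 173 called lower in Id3+ eTR; higher genes reach log2 changes of several units at low and middle levels, while most lower genes lie at high levels and within 1 unit of zero.

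Id3 RNA stood at 204, 261 and 277 CPM in Id3+ eTR of mice 84, 86 and 87, against 306, 254 and 274 CPM in Id3+ cTR. The 2 groups overlapped, and the difference was -0.17 ± 0.15 on the log2 scale (SE, adjusted p = 0.588, edgeR). In Id3- eTR of the same spleens Id3 averaged 58.5 ± 12.5 CPM (SD, n = 3). Foxp3 was at 374, 246 and 249 CPM in Id3+ eTR and 308, 263 and 293 CPM in Id3+ cTR. These ranges overlapped too (log2 change 0.01 ± 0.14, adjusted p = 0.980), as did those of Cd4 (0.23 ± 0.16, adjusted p = 0.467). CD44 was one of the gates that set the groups apart, so its RNA is a check of the sort and no finding. Cd44 averaged 137 ± 25.9 CPM in Id3+ eTR and 59.5 ± 4.36 CPM in Id3+ cTR (SD, n = 3 each), and the groups did not overlap. It rose by 1.20 ± 0.26 (adjusted p = 0.0127, lost without eTR 84 at 0.0603 or cTR 84 at 0.0585).

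None of the 6 tested E and Id protein genes was called, and their median log2 change was 0.41. Id2, the relative of Id3, was at 102, 121 and 156 CPM in Id3+ eTR and at 81.9, 87.5 and 93.7 CPM in Id3+ cTR. The groups did not overlap, but the log2 change of 0.53 ± 0.15 missed the threshold (adjusted p = 0.0635, edgeR; 0.0230 by DESeq2 and 0.0248 without eTR 84). Tcf3, which encodes the E proteins E12 and E47, was at 143, 35.8 and 57.9 CPM in Id3+ eTR and at 34.5, 27.6 and 37.0 CPM in Id3+ cTR. Its high value lay in the library of mouse 84, and the log2 change of 1.27 ± 0.39 (adjusted p = 0.0751, edgeR; 0.0243 by DESeq2) was 0.52 without that library (adjusted p = 0.473) and was called without that of mouse 86 (adjusted p = 0.0132). Tcf12 had a log2 change of 0.09 ± 0.20 (adjusted p = 0.848), Tcf4 of 0.30 ± 0.79 (adjusted p = 0.874) and Id1 of 0.60 ± 1.09 (adjusted p = 0.816), and Id4 had 0 counts in all 6 libraries. Tcf4 and Id1 lay under 13 CPM in each library.

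Of 16 genes that define TR, 3 rose (2.93% of all genes tested were higher), none fell, and the median log2 change was 0.09. Nrp1, a semaphorin co-receptor found on thymus-derived TR, was at 497, 444 and 429 CPM in Id3+ eTR, against 191, 203 and 203 CPM in Id3+ cTR. Every Id3+ eTR library was more than 2-fold above every Id3+ cTR library, and Nrp1 rose by 1.20 ± 0.09 (adjusted p = 1.16e-06). Itgb8, the integrin chain with which TR activate TGF-beta, was at 97.5, 67.6 and 61.4 CPM in Id3+ eTR and 19.5, 35.6 and 30.8 CPM in Id3+ cTR. The groups did not overlap, and Itgb8 rose by 1.38 ± 0.25 (adjusted p = 0.00462). It was not called by limma-voom (adjusted p = 0.0579), in the 6 libraries alone (0.0787; 0.148 with the mouse as a block) or without both libraries of mouse 84 (0.0850). Tnfrsf9, the costimulatory receptor 4-1BB, rose by 0.69 ± 0.18 (adjusted p = 0.0445), a call that was lost without eTR 84 (adjusted p = 0.172) or eTR 87 (0.0754) or any of the 3 Id3+ cTR libraries (0.0789 to 0.143). Ctla4 (0.07 ± 0.10, adjusted p = 0.782), Il2ra (-0.34 ± 0.16, adjusted p = 0.240) and Ikzf2 (0.36 ± 0.14, adjusted p = 0.150), named after their values were seen as core TR genes, did not pass.

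Many genes of resting, recirculating T cells fell. Of 23 such genes 11 fell and none rose, all 23 log2 changes were below zero, and their median was -0.66. Over all genes tested the median was 0.05, 1.39% were called lower and 45.2% were below zero. This list and the others were chosen with earlier results of these data known. Their counts describe the lists and give no independent support. Satb1, which encodes a chromatin organiser of developing and resting T cells, was at 331, 325 and 328 CPM in Id3+ eTR and at 730, 686 and 869 CPM in Id3+ cTR. The 3 Id3+ eTR libraries were nearly equal and all more than 2-fold below the lowest Id3+ cTR library. Satb1 fell by 1.22 ± 0.12 on the log2 scale (adjusted p = 2.67e-05), the only lower gene called under all 17 alternatives. Ly6c1, a surface protein of the Ly6 family, was at 100, 165 and 132 CPM in Id3+ eTR and 326, 254 and 364 CPM in Id3+ cTR. It fell by 1.25 ± 0.26 (adjusted p = 0.0107), a call lost without cTR 87 (adjusted p = 0.0624). Treml2, a receptor of the TREM family, was at 65.7, 76.5 and 24.1 CPM in Id3+ eTR and 143, 150 and 149 CPM in Id3+ cTR. It fell by 1.41 ± 0.33 (adjusted p = 0.0237), and not without cTR 84 (adjusted p = 0.0619), 86 (0.0524) or 87 (0.0773).

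The other 8 called members of this list, named after their values were seen, fell less. S1pr1, the sphingosine receptor needed to leave lymphoid organs, was at 491, 423 and 352 CPM in Id3+ eTR and 752, 616 and 707 CPM in Id3+ cTR. The groups did not overlap, and S1pr1 fell by 0.71 ± 0.13 (adjusted p = 0.00362). Bach2, a repressor that holds back effector genes, fell by 0.89 ± 0.17 (adjusted p = 0.00499), Txk, a Tec family kinase, by 1.0 ± 0.17 (adjusted p = 0.00245) and Lef1, a partner of TCF1 in naive T cells, by 0.60 ± 0.09 (adjusted p = 9.28e-04). Those 4 calls held with each single library left out. Ccr7, the receptor for lymph node chemokines, was at 410, 397 and 351 CPM in Id3+ eTR and 633, 557 and 639 CPM in Id3+ cTR. It fell by 0.66 ± 0.15 (adjusted p = 0.0194), a call lost without eTR 87 (adjusted p = 0.0679) or cTR 84 (0.0733) or 87 (0.0840). Foxp1 fell by 0.43 ± 0.09 (adjusted p = 0.0140; 0.0594 without eTR 87 and 0.0692 without cTR 84). Bcl2 fell by 0.47 ± 0.12 (adjusted p = 0.0362), a call lost without any of 4 libraries (eTR 86, eTR 87, cTR 84 or cTR 87, at 0.0938 to 0.172) and with the mouse as a block (0.0583). Klf2, which drives S1pr1, fell by 0.56 ± 0.15 (adjusted p = 0.0431) and lost the call with each of the 6 libraries left out in turn (adjusted p 0.0691 to 0.134). Calls of this list are not counted without eTR 84, cTR 84 and cTR 87 together, where 1 Id3+ cTR library was left.

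Receptors for migration changed in both directions. Of 21 chemokine and lipid chemoattractant receptors 6 rose and 2 fell, which were Ccr7 and S1pr1, against 2.93% higher and 1.39% lower of all genes tested. Their median log2 change was 1.19, or 0.76 with a gene at 0 counts in a group set at its bound and genes of at most 3 counts in both groups left out. Cxcr3, the receptor for the interferon-induced chemokines CXCL9 and CXCL10, was at 169, 173 and 137 CPM in Id3+ eTR and at 3.25, 6.79 and 4.32 CPM in Id3+ cTR. The 3 Id3+ eTR libraries lay close together and far above all Id3+ cTR libraries, and Cxcr3 rose by 4.97 ± 0.42 (adjusted p = 2.59e-06). Ccr4, a receptor for CCL17 and CCL22, was at 35.5, 19.9 and 22.2 CPM in Id3+ eTR and at 0.650, 0 and 1.23 CPM in Id3+ cTR. Only 3 counts fell on Ccr4 in the 3 Id3+ cTR libraries, so the ratio of 49.9 has a 95% counting interval of 16.9 to 244 (adjusted p = 4.69e-04). Gpr15, a homing receptor of the large intestine, was at 39.9, 33.8 and 49.0 CPM in Id3+ eTR and 5.20, 5.99 and 0 CPM in Id3+ cTR. It rose by 3.36 ± 0.67 (adjusted p = 0.00818, edgeR), and by 3.997 without cTR 86. Its call was lost by limma-voom and without both libraries of mouse 84 or of mouse 87. It was also lost in the 6 libraries alone, with or without the mouse as a block. The other members that rose were Ccr8, Ccr6 and Ptger4, with log2 changes of 2.12, 1.52 and 0.79; the calls of Ccr6 and Ptger4 were lost without cTR 87 (adjusted p = 0.0681 and 0.0650).

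Promoters of Cxcr3, Tigit, S100a4 and Satb1 are shown as examples from the genes called under all 17 alternatives, 27 higher and 1 lower. The examples were picked by hand. Promoters are shown because Id3 acts on E proteins, which bind the E-box. The sequences run from 250 bases before to 50 after the start, 5′ to 3′ on the gene's strand, from RefSeq on GRCm38.p6, and capitals mark each CANNTG, a motif that reads the same on both strands. They lie at chrX:101734098-101734397 (minus strand), chr16:43664135-43664434 (minus), chr3:90603520-90603819 (plus) and chr17:51833241-51833540 (minus), the last being the first listed of 5 start sites of Satb1.
Cxcr3: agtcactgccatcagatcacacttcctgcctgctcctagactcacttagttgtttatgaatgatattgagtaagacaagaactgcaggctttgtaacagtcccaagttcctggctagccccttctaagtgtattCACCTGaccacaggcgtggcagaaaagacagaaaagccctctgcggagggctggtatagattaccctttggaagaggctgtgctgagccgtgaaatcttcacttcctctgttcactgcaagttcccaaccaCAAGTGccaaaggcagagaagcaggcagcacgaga
Tigit: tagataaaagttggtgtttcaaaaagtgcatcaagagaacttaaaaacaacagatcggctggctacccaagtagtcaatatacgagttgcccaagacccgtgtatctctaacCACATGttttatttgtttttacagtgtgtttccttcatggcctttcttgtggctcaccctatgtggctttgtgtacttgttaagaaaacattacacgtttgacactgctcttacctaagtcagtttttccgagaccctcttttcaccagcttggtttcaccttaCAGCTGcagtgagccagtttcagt
S100a4: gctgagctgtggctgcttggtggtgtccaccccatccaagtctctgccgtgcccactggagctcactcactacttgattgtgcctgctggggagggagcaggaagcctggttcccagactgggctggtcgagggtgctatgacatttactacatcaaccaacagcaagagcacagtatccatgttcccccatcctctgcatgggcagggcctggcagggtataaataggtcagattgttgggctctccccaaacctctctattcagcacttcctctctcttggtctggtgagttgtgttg
Satb1: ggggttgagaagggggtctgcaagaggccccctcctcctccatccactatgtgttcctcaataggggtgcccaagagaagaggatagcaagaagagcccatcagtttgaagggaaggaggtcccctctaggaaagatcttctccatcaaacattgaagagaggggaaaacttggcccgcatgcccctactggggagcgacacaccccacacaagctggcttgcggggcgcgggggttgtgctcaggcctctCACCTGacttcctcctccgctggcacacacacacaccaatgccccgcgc
Cxcr3 and Tigit each hold 2 such motifs in this window, Satb1 holds 1 and S100a4 none. Over the 8841 tested genes with a promoter in the table, 62.8% of windows hold at least 1 CANNTG. Only the first listed window of each gene was used. The share is 71.2% for the 271 higher genes and 61.7% for the 133 lower genes with a window. For CAGCTG it is 21.4% of the higher and 11.3% of the lower genes, against 14.5% of all, and for CACCTG or its reverse CAGGTG 24.0% and 14.3%, against 17.0%. These shares describe letters in the windows, and a window without the motif says nothing of the factors.

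Integrins and other adhesion molecules were split as well, with 4 of 20 higher and 2 lower, against 2.93% and 1.39% of all genes tested. Their median was 0.19, or 0.295 without genes of at most 3 counts in both groups. Itgb1, the beta chain of the fibronectin and collagen receptors, was at 438, 329 and 379 CPM in Id3+ eTR and 116, 146 and 108 CPM in Id3+ cTR. It rose by 1.62 ± 0.13 (adjusted p = 1.16e-06), with every Id3+ eTR library more than 2-fold above every Id3+ cTR library. Itgae, which encodes CD103 and pairs with beta 7 to bind E-cadherin, was at 107, 32.1 and 59.8 CPM in Id3+ eTR and 20.8, 16.0 and 0.617 CPM in Id3+ cTR. It rose by 2.39 ± 0.55 (adjusted p = 0.0195), and the call was lost without eTR 84 (adjusted p = 0.0991) or cTR 87 (0.0708). Itgb8 is described above, and Itgal, the alpha chain of LFA-1, rose by 0.90 ± 0.20 (adjusted p = 0.0150, lost without eTR 84 or cTR 84 or 86 at 0.0507 to 0.0748). Cd2 and Selplg were the 2 that fell, by 0.48 and 0.49; the call of Cd2 was lost without eTR 84 or cTR 84 or 87 (adjusted p 0.160 to 0.187) and with the mouse as a block (0.0602).

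**Figure D3:**
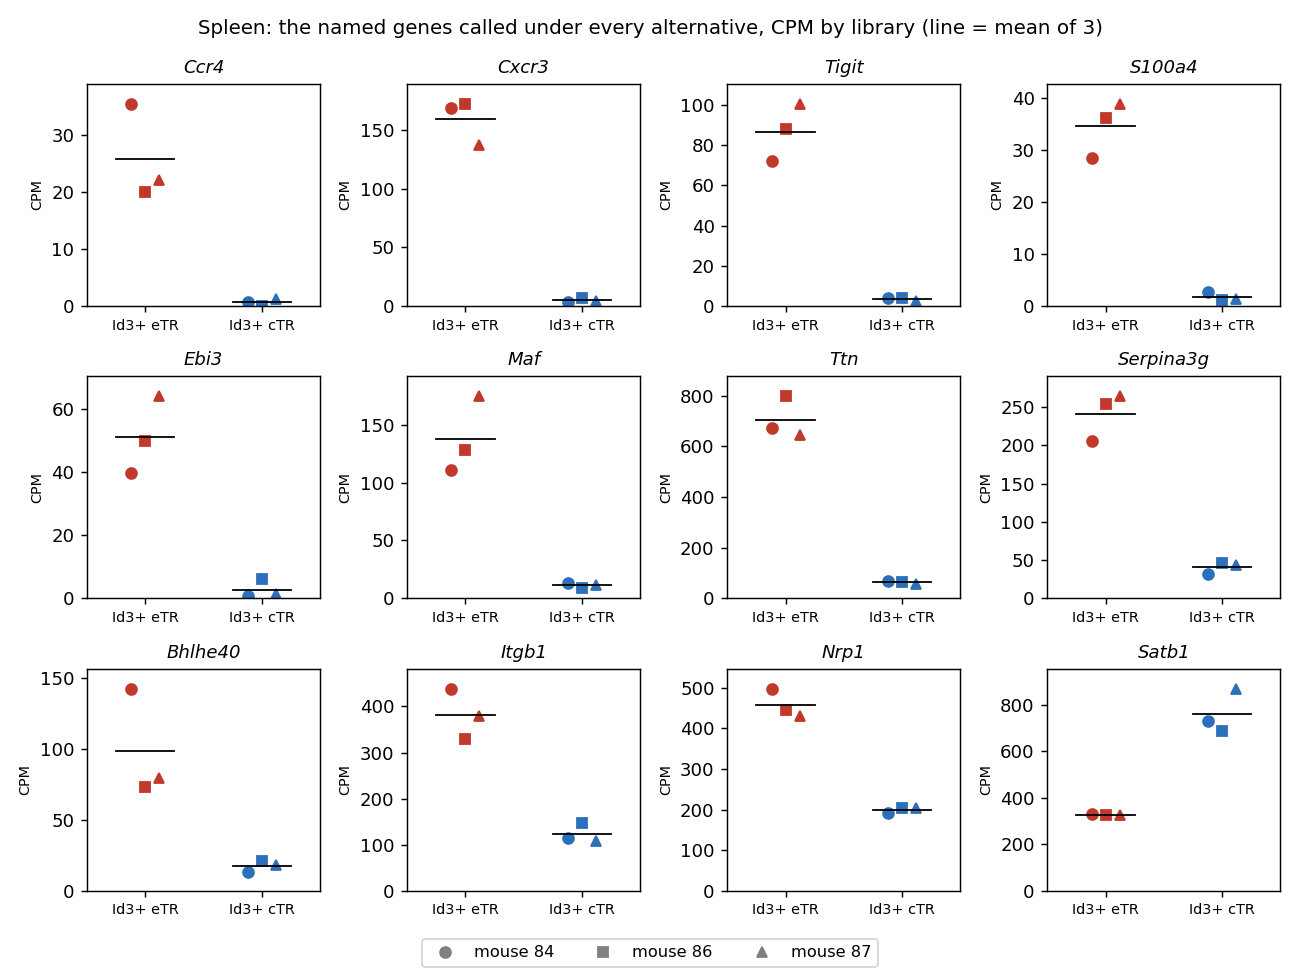
CPM (y axes, linear and from 0) in each spleen library of Id3+ eTR (left, red) and Id3+ cTR (right, blue) for 12 named genes that were called under all 17 alternatives; marker shapes give the mouse and lines the mean of 3. In all 12 the groups do not overlap, and Satb1 is the one that is lower in Id3+ eTR, at 325 to 331 CPM against 686 to 869 CPM.

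Transcription factors of effector TR rose in 7 of 22 cases, against 2.93% of all genes tested, and fell in none (median log2 change 0.995, or 1.04 without genes of at most 3 counts in both groups). Maf, which drives IL-10 and supports follicular and gut TR, was at 111, 128 and 174 CPM in Id3+ eTR and 13.7, 9.19 and 11.7 CPM in Id3+ cTR. The lowest Id3+ eTR library was about 8 times the highest Id3+ cTR library, and Maf rose by 3.61 ± 0.29 (adjusted p = 1.47e-06). Bhlhe40, a repressor induced on activation, was at 142, 72.8 and 79.7 CPM in Id3+ eTR and 13, 21.2 and 18.5 CPM in Id3+ cTR, and rose by 2.46 ± 0.28 (adjusted p = 9.18e-05). Tbx21, which encodes T-bet and is needed for Cxcr3 expression in TR, was at 10.4, 8.14 and 9.72 CPM in Id3+ eTR and 1.30, 0 and 1.23 CPM in Id3+ cTR. It rose by 3.58 ± 0.85 (adjusted p = 0.0237), but not without eTR 84 (adjusted p = 0.0558) or any 1 of the Id3+ cTR libraries (0.0540 to 0.0682), and the change was 2.87 without cTR 86. Rora (1.72 ± 0.22, adjusted p = 2.17e-04), Nfil3 (1.90 ± 0.35, adjusted p = 0.00435) and Hif1a (1.04 ± 0.16, adjusted p = 0.00108), named after their values were seen, rose and kept the call with each single library left out. Batf, an AP-1 factor, rose by 0.40 ± 0.11 (adjusted p = 0.0467) and lost the call with 5 of the 6 libraries left out singly (adjusted p 0.0536 to 0.173) and with the mouse as a block (0.0589). Prdm1, which encodes Blimp-1, a regulator of the most mature effector TR and of IL-10, was at 24.8, 16.7 and 25.3 CPM in Id3+ eTR and at 4.55, 20.8 and 24.0 CPM in Id3+ cTR. Its groups overlapped (0.40 ± 0.38, adjusted p = 0.607), and Id3- eTR of the same spleens stood at 188 ± 29.6 CPM (SD, n = 3).

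Inhibitory receptors rose in 4 of 16 cases, against 2.93% of all genes tested, and fell in none (median 0.56). Tigit, which competes with the costimulatory receptor CD226 for ligands, was at 72.0, 87.9 and 101 CPM in Id3+ eTR and 3.90, 4.0 and 2.47 CPM in Id3+ cTR. All Id3+ eTR libraries were far above all Id3+ cTR libraries, and Tigit rose by 4.60 ± 0.35 (adjusted p = 1.16e-06). Pdcd1, which encodes PD-1, was at 321, 144 and 205 CPM in Id3+ eTR and 29.3, 40.8 and 36.4 CPM in Id3+ cTR, and rose by 2.64 ± 0.32 (adjusted p = 1.72e-04). Klrg1, a lectin-like receptor of terminally differentiated T cells, was at 33.8, 15.5 and 38.1 CPM in Id3+ eTR and 2.60, 0 and 3.08 CPM in Id3+ cTR. It rose by 4.13 ± 0.58 (adjusted p = 6.04e-04; 3.36 without cTR 86 and 4.79 without cTR 87), to a level of 29.1 ± 12 CPM that compares with 388 ± 30.9 CPM in Id3- eTR (SD, n = 3 each). Pdcd1lg2, which encodes the PD-1 ligand PD-L2, rose by 1.22 ± 0.33 (adjusted p = 0.0458) and lost the call with 5 of the 6 libraries left out singly (0.0551 to 0.178) and with the mouse as a block (0.0557).

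Of 18 costimulatory and TNF family members 6 rose, against 2.93% of all genes tested, and none fell (median 0.16). Tnfrsf8, which encodes CD30, was at 14.4, 14.7 and 6.61 CPM in Id3+ eTR and at 0, 0.40 and 0 CPM in Id3+ cTR. With 1 count in Id3+ cTR, the ratio of 67.8 has a 95% counting interval of 11.9 to 2706 (adjusted p = 0.00166, edgeR). In lymph node Id3+ cTR it reached at most 0.355 CPM, so Tnfrsf8 could pass the count filter only through eTR libraries. Tnfsf14, the ligand LIGHT, was at 21.8, 6.51 and 21.0 CPM in Id3+ eTR and at 1.30, 0.40 and 0 CPM in Id3+ cTR, a ratio of 31.8 with an interval of 10.6 to 156 (adjusted p = 0.00613). Tnfsf11, the ligand RANKL, was at 77.1, 68.0 and 71.9 CPM in Id3+ eTR and 29.9, 15.2 and 14.2 CPM in Id3+ cTR, and rose by 1.89 ± 0.35 (adjusted p = 0.00466). Icos, a costimulatory receptor on which effector TR depend, rose by 0.72 ± 0.11 (adjusted p = 9.97e-04). Tnfrsf1b, the TNF receptor of TR, rose by 1.84 ± 0.41 (adjusted p = 0.0173), with 456 CPM in eTR 84 and 114 and 139 CPM in the other 2, against 38.0 to 90.6 CPM in Id3+ cTR. Its call was lost without that library (adjusted p = 0.0691) or cTR 84 (0.0539) or 86 (0.0629). Tnfrsf9 is described above.

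Of 17 secreted and suppressive mediators 3 rose, against 2.93% of all genes tested, and none fell (median 0.88). Ebi3, a subunit of the cytokines IL-27 and IL-35, was at 39.9, 50.1 and 64.1 CPM in Id3+ eTR and 0.650, 5.99 and 1.23 CPM in Id3+ cTR. The groups were far apart, and Ebi3 rose by 4.07 ± 0.51 (adjusted p = 2.22e-04), and by 5.70 without cTR 86. Nt5e, the ecto-enzyme CD73 that makes adenosine, was at 506, 294 and 358 CPM in Id3+ eTR and 167, 244 and 168 CPM in Id3+ cTR. It rose by 0.99 ± 0.17 (adjusted p = 0.00359, edgeR). The call of Nt5e was lost in the 6 libraries alone, with or without the mouse as a block, and without both libraries of mouse 84. Penk, the enkephalin precursor, was at 162, 173 and 172 CPM in Id3+ eTR and 13.7, 57.5 and 43.8 CPM in Id3+ cTR. It rose by 2.10 ± 0.55 (adjusted p = 0.0388) and kept the call only without cTR 86 among the 6 single libraries (0.0560 to 0.152 otherwise). Il10 was at 0.670, 4.48 and 21.4 CPM in Id3+ eTR and 1.95, 0 and 0.617 CPM in Id3+ cTR. Its groups overlapped and the call was not made (3.51 ± 1.12, adjusted p = 0.0876), while Id3- eTR held 179 ± 14.7 CPM. Gzmb was at 2.38 ± 1.83 CPM in Id3+ eTR and 3.88 ± 5.68 CPM in Id3+ cTR (adjusted p = 0.876), against 94.4 ± 26.8 CPM in Id3- eTR (SD, n = 3 each). Il10, Gzmb and Prdm1 were named after their values were seen.

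Genes induced through the T cell receptor rose in 6 of 19 cases, against 2.93% of all genes tested, and fell in none (median 0.48). Egr2, an early factor that also limits T cell responses, was at 124, 42.3 and 52.9 CPM in Id3+ eTR and 1.95, 4.79 and 17.3 CPM in Id3+ cTR, and rose by 3.22 ± 0.54 (adjusted p = 0.00245; 2.60 without eTR 84 and 4.33 without cTR 87). Egr1 was at 340, 158 and 119 CPM in Id3+ eTR and 52.7, 60.7 and 46.2 CPM in Id3+ cTR, and rose by 1.95 ± 0.33 (adjusted p = 0.00276). Both were highest in the library of mouse 84, and both calls held without it. In the 6 libraries alone, with or without the mouse as a block, Egr2 was not called. Nfkb2 rose by 1.63 ± 0.29 (adjusted p = 0.00363) and Tox by 0.59 ± 0.11 (adjusted p = 0.00398), and Pdcd1 and Tnfrsf9, described above, are the other 2. The remaining 13 members were not called, and 12 of the 19 log2 changes were above zero. Among those not called, and named after their values were seen, were Nr4a1 (-0.03 ± 0.25, adjusted p = 0.964, edgeR) and Cd69 (-0.43 ± 0.12, adjusted p = 0.0520). Myc, also not called, had a change of -0.002 ± 0.15. Follicular TR genes rose in 6 of 16 cases, against 2.93% of all genes tested, and fell in none (median 1.19). Without eTR 84 they rose in 7, in a fit that called 345 of all genes tested in either direction. Angptl2, a secreted angiopoietin-like protein, was at 94.8, 7.73 and 8.16 CPM in Id3+ eTR and had 0 counts in all 3 Id3+ cTR libraries. It was at least 76.1-fold higher against a floor of 3 counts over the group (adjusted p = 0.00428, edgeR), and at least 15-fold higher without eTR 84. In lymph node Id3+ cTR it reached at most 0.379 CPM, so Angptl2 could pass the count filter only through eTR libraries. Tox2, an HMG-box factor of follicular helper cells, was at 114, 21.2 and 40.4 CPM in Id3+ eTR and 7.15, 0 and 3.08 CPM in Id3+ cTR, and rose by 4.26 ± 0.74 (adjusted p = 0.00347; 3.35 without eTR 84, 5.48 without cTR 84 and 3.54 without cTR 86). Matn2, a matrix protein, was at 42.2, 32.6 and 37.3 CPM in Id3+ eTR and 3.90, 0.40 and 9.25 CPM in Id3+ cTR, and rose by 3.15 ± 0.57 (adjusted p = 0.00408; 2.51 without cTR 86 and 4.32 without cTR 87). Pdcd1, Icos and Tox, which several lists share, are the other 3. Cxcr5 (1.65 ± 0.48, adjusted p = 0.0599, edgeR) and Bcl6 (0.37 ± 0.53, adjusted p = 0.758), named after their values were seen, were not called. The groups did not overlap in Cxcr5 and overlapped in Bcl6.

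Cytokine receptors and signal regulators rose in 6 of 32 cases, against 2.93% of all genes tested, and fell in none (median 0.17). Il1r2, a decoy receptor that traps IL-1, was at 55.3, 35.8 and 86.3 CPM in Id3+ eTR and 0.650, 0.40 and 0 CPM in Id3+ cTR. With 2 counts in Id3+ cTR, the ratio of 168 has a 95% counting interval of 46.2 to 1390 (adjusted p = 2.90e-04). Il9r was at 12.4, 3.26 and 15.5 CPM in Id3+ eTR and had 0 counts in Id3+ cTR, at least 20.02-fold higher (adjusted p = 0.00169, edgeR). In lymph node Id3+ cTR, Il1r2 and Il9r reached at most 0.331 CPM each. Both could therefore pass the count filter only through eTR libraries. Il1rl1, the IL-33 receptor ST2 of tissue TR, was at 26.5, 23.6 and 29.5 CPM in Id3+ eTR and 1.30, 4.40 and 4.32 CPM in Id3+ cTR. It rose by 2.91 ± 0.42 (adjusted p = 7.06e-04), to a level under the 117 ± 18.3 CPM of Id3- eTR. Il10ra rose by 1.45 ± 0.27 (adjusted p = 0.00513). Il12rb1 (adjusted p = 0.0193) and Il15ra (adjusted p = 0.0370) rose by 2.85 and 0.96; without eTR 84 the first was lost (adjusted p = 0.109), as without cTR 86 or 87 (0.0585 and 0.103), and the second was lost without any of 4 libraries (0.0561 to 0.120) and with the mouse as a block (0.0577).

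Genes of the S100, annexin, galectin and cytoskeleton list rose in 6 of 20 cases and fell in 1, against 2.93% higher and 1.39% lower of all genes tested, around a median of -0.10. S100a4, a calcium-binding protein of motile cells, was at 28.5, 36.2 and 38.9 CPM in Id3+ eTR and 2.60, 1.20 and 1.23 CPM in Id3+ cTR. It rose by 4.39 ± 0.35 (adjusted p = 1.27e-06), with no overlap between the groups. Its relative S100a6 rose by 2.36 ± 0.25 (adjusted p = 4.24e-05) and the large scaffold protein Ahnak by 1.36 ± 0.12 (adjusted p = 3.83e-06), and both were called under all 17 alternatives. Myo1f, a myosin of leukocytes, was at 123, 35.8 and 26.4 CPM in Id3+ eTR and 8.45, 5.99 and 8.63 CPM in Id3+ cTR (3.05 ± 0.61, adjusted p = 0.00818). Its change was 2.05 without eTR 84 (adjusted p = 0.0356), and it was not called by limma-voom (0.114), in the 6 libraries alone (0.0517) or without both libraries of mouse 84 (0.0871). Lgals3, a galectin, was at 8.04, 4.07 and 26.4 CPM in Id3+ eTR and had 0 counts in Id3+ cTR, at least 24.0-fold higher. Its call (adjusted p = 0.0173) was lost without any 1 of the Id3+ cTR libraries (0.0504 to 0.0634). S100a11 rose by 0.88 ± 0.22 (adjusted p = 0.0300, lost without any of 4 libraries at 0.0586 to 0.0871), and Crip1 fell by 0.70 ± 0.15 (adjusted p = 0.0142, lost without eTR 84 or cTR 84 or 87 at 0.0651 to 0.0841).

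In lists of growth and metabolism the shares of genes called, 4% for proliferation, 6.25% for glycolysis and 4% for interferon-stimulated genes, rest on 1 gene each and stand beside 4.32% of all genes tested. Of 25 proliferation genes 1 rose and none fell (median 0.54, or 0.622 with a gene at 0 counts in a group at its bound and genes of at most 3 counts in both left out). Mki67, the cycling marker Ki-67, was at 10.7, 10.6 and 11.7 CPM in Id3+ eTR and 0.650, 0 and 0 CPM in Id3+ cTR, a ratio of 62.2 with a 95% counting interval of 10.9 to 2483 from 1 count (adjusted p = 0.00376). Id3- eTR held 90.0 ± 37.4 CPM of it (SD, n = 3). Of 16 glycolysis genes (median 0.25) Ldha alone was called. It fell by 0.48 ± 0.12 (adjusted p = 0.0336), a call that held singly only without cTR 86 (0.0604 to 0.177 without another). Of 25 interferon-stimulated genes (median -0.09) Igtp, an immunity-related GTPase, fell by 0.38 ± 0.10 (adjusted p = 0.0326), and not without eTR 84 (0.131) or 87 (0.0593), without cTR 84 (0.0624) or 87 (0.162), or with the mouse as a block (0.0526). Bcl2 was the only call among 12 genes of its family (median 0.22). None was called of 17 sterol and fatty acid synthesis genes (median -0.25) or 19 dissociation stress genes (median 0.04).

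The list counts were also taken without libraries, a choice made after seeing the data. Without eTR 84, 345 of all genes tested were called, against 538 in the main model, with the numbers higher and lower given above. The shares of all genes in the main model do not apply here, and no share was taken for this fit. These counts are a description, and nothing is read from them. Without eTR 84 higher calls numbered 3 among TR identity genes, 5 among effector transcription factors, 4 among inhibitory and 4 among costimulatory receptors, 6 among chemokine receptors, 4 among integrins, 3 among secreted mediators, 5 among T cell receptor-induced genes, 5 among cytokine receptors and 6 among S100 and cytoskeleton genes. The resting genes then had 12 lower calls, the Bcl2 family 2, the chemokine receptors 2, and the integrins and cytokine receptors 1 each, and the glycolysis, interferon and stress lists had 1 higher call each. Counts by list are not given without eTR 84, cTR 84 and cTR 87 together, where 1 Id3+ cTR library was left.

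**Figure D4:**
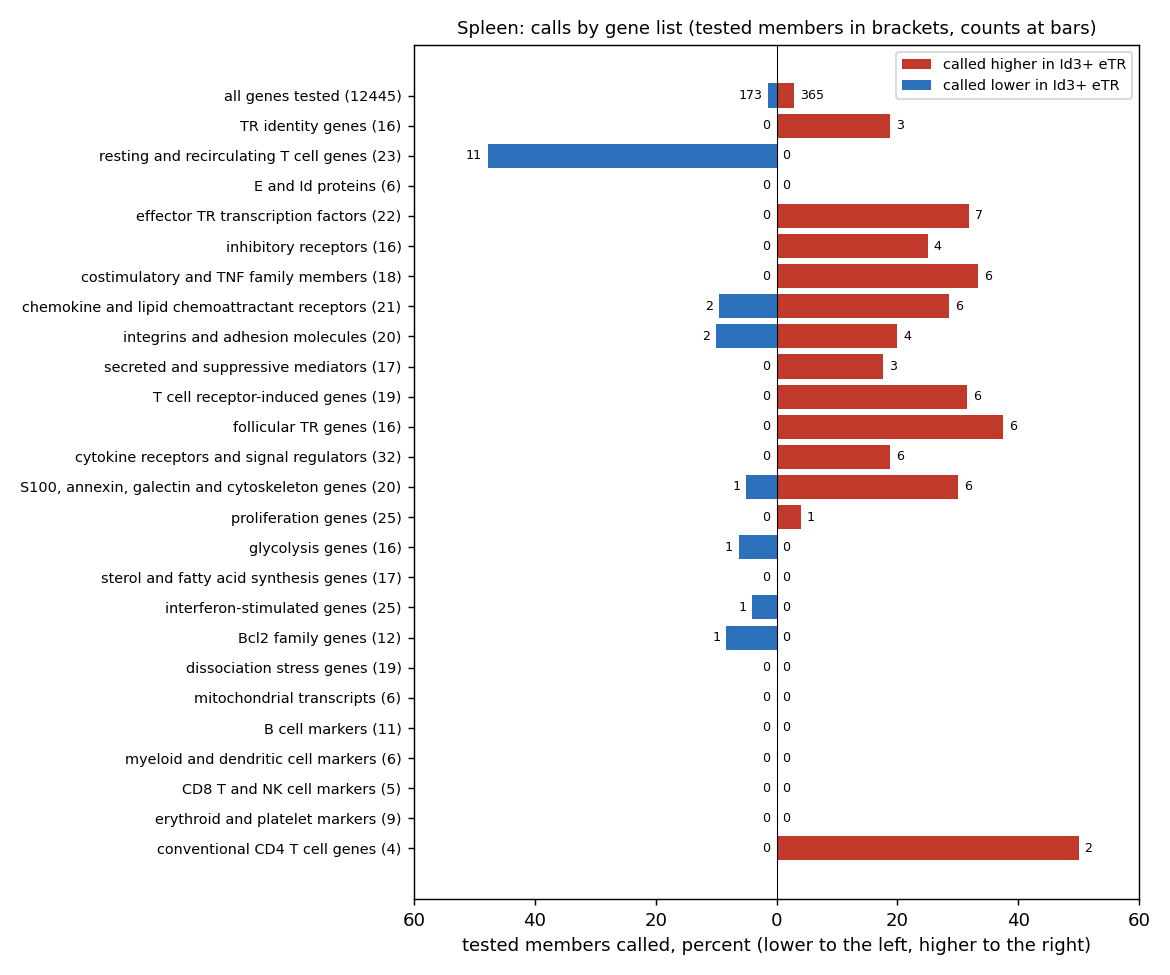
Percent of the tested members of each gene list called higher (red, to the right) or lower (blue, to the left) in spleen Id3+ eTR, with the number called at each bar and the number tested in brackets; the top row gives all 12445 genes. Among resting and recirculating T cell genes 11 of 23 are lower and none higher, while effector transcription factors, follicular genes and T cell receptor-induced genes have only higher calls.

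Markers of other cells were read over whole lists. None of 11 tested B cell markers was called (median -0.84), and 2 of the 11 log2 changes were above zero. Their summed level was 1080 to 1250 CPM in Id3+ eTR and 1316 to 1580 CPM in Id3+ cTR, ranges that did not overlap. None of 9 erythroid and platelet markers was called (median -1.44), with sums of 54.8 to 229 CPM in Id3+ eTR and 287 to 424 CPM in Id3+ cTR that did not overlap. Myeloid and dendritic markers (6 tested, none called, median 1.22) summed to 153 to 260 CPM in Id3+ eTR and 137 to 264 CPM in Id3+ cTR, with S100a8 and S100a9 at 0 throughout. CD8 T and NK cell markers (5 tested, none called, median 0.17, or 0.286 with such genes treated likewise) summed to 103 to 134 CPM in Id3+ eTR and 76.7 to 170 CPM in Id3+ cTR, with Ncr1 at 0 throughout. Of the stromal and endothelial list 1 gene was tested, Pecam1, which T cells also express. It fell by 0.80 ± 0.16 (adjusted p = 0.00899), while Cdh5, Kdr and Cxcl12 were at 0 in all 6 libraries. The 6 tested mitochondrial transcripts were all lower in Id3+ eTR, with a median of -0.51 and none called, and the part of this in the lower genes was not tested. Of 11 listed genes of conventional CD4 T cells 4 were tested (median 3.38, or 1.63 with Il4 and Il21 at their bounds). Ifng and Il4 rose, against 2.93% of all genes tested. Ifng was at 43.9, 65.9 and 49.4 CPM in Id3+ eTR and 0, 7.59 and 15.4 CPM in Id3+ cTR (2.77 ± 0.62, adjusted p = 0.0176, 0.0515 without cTR 86; a change of 3.575 without cTR 87). Il4 was at 3.69, 3.66 and 6.61 CPM in Id3+ eTR and had 0 counts in Id3+ cTR, at least 8.71-fold higher (adjusted p = 0.00835). Id3+ cTR of lymph node also had 0 CPM, so Il4 could pass the count filter only through eTR libraries. Nothing is read from the median of this list. Il5, Il13, Il17a, Il17f and Il22 had 0 counts in all 6 libraries.

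Outside the lists, Ttn had a high level and a large change together. Ttn, which encodes the giant muscle protein titin, was at 670, 797 and 644 CPM in Id3+ eTR and 69.6, 65.5 and 58.6 CPM in Id3+ cTR. Every Id3+ eTR library was more than 9 times every Id3+ cTR library, and Ttn rose by 3.44 ± 0.22 (adjusted p = 1.1e-07). CPM are not scaled by length, so the level of so long a transcript cannot be set against that of other genes. Serpina3g, a protease inhibitor of activated lymphocytes, was at 206, 255 and 264 CPM in Id3+ eTR and 32.5, 46.8 and 43.2 CPM in Id3+ cTR. It rose by 2.55 ± 0.15 (adjusted p = 8.59e-08), and as a member of a family of near-identical genes its counts are uncertain. Naip5, a sensor of bacterial flagellin, rose by 3.97 ± 0.76 (adjusted p = 0.00616; 3.325 without cTR 86 and 4.60 without cTR 87), Gpm6b, a membrane glycoprotein, by 2.93 ± 0.49 (adjusted p = 0.00242; 4.48 without cTR 86), Zdhhc2, a palmitoyltransferase, by 2.72 ± 0.48 (adjusted p = 0.00359; 3.58 without cTR 84) and Stx11, a syntaxin of lymphocyte granules, by 2.65 ± 0.46 (adjusted p = 0.00347). Abhd4, a lipid hydrolase, rose by 3.25 ± 0.75 (adjusted p = 0.0193; 0.0526, 0.0600 and 0.0547 without eTR 84, cTR 84 or cTR 86; a change of 4.03 without cTR 87). Cybb, a subunit of the phagocyte NADPH oxidase, rose by 2.60 ± 0.54 (adjusted p = 0.0107, and 0.0506 without cTR 84, edgeR). Gpm6b and Stx11 were not called in the 6 libraries alone, with or without the mouse as a block. Stx11 was also lost by limma-voom, and Zdhhc2 in the 6 libraries alone.

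The lower genes outside the lists were led by Cnn3, an actin-binding calponin, at 10.7, 9.36 and 18.3 CPM in Id3+ eTR and 63.1, 98.7 and 81.4 CPM in Id3+ cTR. The groups were well apart, and Cnn3 fell by 2.66 ± 0.62 (adjusted p = 0.0205), but the call was lost without 1 of 4 libraries (eTR 84 or 86, cTR 86 or 87, at 0.0532 to 0.0766). Rasgrp2, which activates the small GTPase Rap1, was at 147, 166 and 134 CPM in Id3+ eTR and 285, 263 and 266 CPM in Id3+ cTR. It fell by 0.87 ± 0.18 (adjusted p = 0.0104) and kept the call without any single library, but not without both libraries of mouse 84 (adjusted p = 0.0971) or 87 (0.0949) or in the 6 libraries alone with the mouse as a block (0.0538). Cd55, a brake on complement, fell by 0.88 ± 0.18 (adjusted p = 0.0110; 0.0708 without cTR 87). Ctsw, a cathepsin of T and NK cells, fell by 1.01 ± 0.22 (adjusted p = 0.0127; 0.0546 and 0.0656 without cTR 84 or 87). Cd7 fell by 1.03 ± 0.23 (adjusted p = 0.0178; 0.0508 to 0.0824 without eTR 84 or cTR 84 or 87), and Gpr146, an orphan receptor, by 0.98 ± 0.25 (adjusted p = 0.0319; 0.0743 to 0.142 without any of 4 libraries). Idh1 fell by 1.22 ± 0.32 (adjusted p = 0.0408) and Mtss1 fell by 1.102 ± 0.30 (adjusted p = 0.0459); both lost the call with the mouse as a block (0.0602 and 0.0702), Idh1 also without any of 5 libraries (0.0677 to 0.134) and Mtss1 without any of 6 (0.0523 to 0.160).

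The same comparison in peripheral lymph node, from the same mice but other libraries, called 705 genes (5.66%). Of the 365 higher spleen genes 237 were also higher there, and of the 173 lower genes 53 were also lower, with none called in opposite directions. These 290 genes are 53.9% of the spleen calls and 41.1% of the lymph node calls. Of the 538 spleen genes 491 had the same sign in lymph node (343 of 365 and 148 of 173), against 58.7% of all genes tested. Cxcr3 rose by 4.97 ± 0.42 in spleen and 4.85 ± 0.40 in lymph node, and Ttn by 3.44 ± 0.22 and 3.47 ± 0.21. Maf rose by 3.61 ± 0.29 in spleen and 3.07 ± 0.25 in lymph node, and Satb1 fell by 1.22 ± 0.12 and 1.95 ± 0.13.

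No gene (0%) passed in the test of the difference between the tissues, the change in spleen minus the change in lymph node. In that test edgeR gave 1180 genes at an unadjusted p under 0.05 and none after adjustment, limma-voom called 0 and DESeq2 90. The 5 genes with the smallest p all had an adjusted p of 0.202. Gbp3, an interferon-induced GTPase, was at 211, 193 and 169 CPM in spleen Id3+ eTR and 142, 98.3 and 98.0 CPM in spleen Id3+ cTR. It rose there by 0.77 ± 0.16 (adjusted p = 0.0132, 0.0803 without cTR 87), and its lymph node change was -0.43 ± 0.16 (adjusted p = 0.156). Cd74, the invariant chain of MHC class II, had a change of -0.37 ± 0.16 in spleen (adjusted p = 0.197) and rose by 0.81 ± 0.15 in lymph node (adjusted p = 0.00379). Rgs2, a brake on G protein signals, had a change of -0.35 ± 0.11 in spleen (adjusted p = 0.0769; 0.0298 by DESeq2 and 0.0342 without eTR 87) and rose by 0.44 ± 0.11 in lymph node (adjusted p = 0.0172). Cela1, an elastase, was at 12.1, 10.6 and 16.7 CPM in spleen Id3+ eTR and 1.30, 4.0 and 0.617 CPM in spleen Id3+ cTR, and at 30.1, 26.3 and 25.6 CPM in lymph node Id3+ eTR with 0 in lymph node Id3+ cTR. Ica1 had a change of 0.65 ± 0.54 in spleen (adjusted p = 0.555) and was called in lymph node (adjusted p = 1.24e-04), at 11.47 to 21.5 CPM in Id3+ eTR against 0 to 0.992 CPM in Id3+ cTR. Egr1, called in spleen, had a change of 0.21 ± 0.32 in lymph node, and its difference between tissues of 1.73 ± 0.45 had an adjusted p of 0.360.

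**Figure D5:**
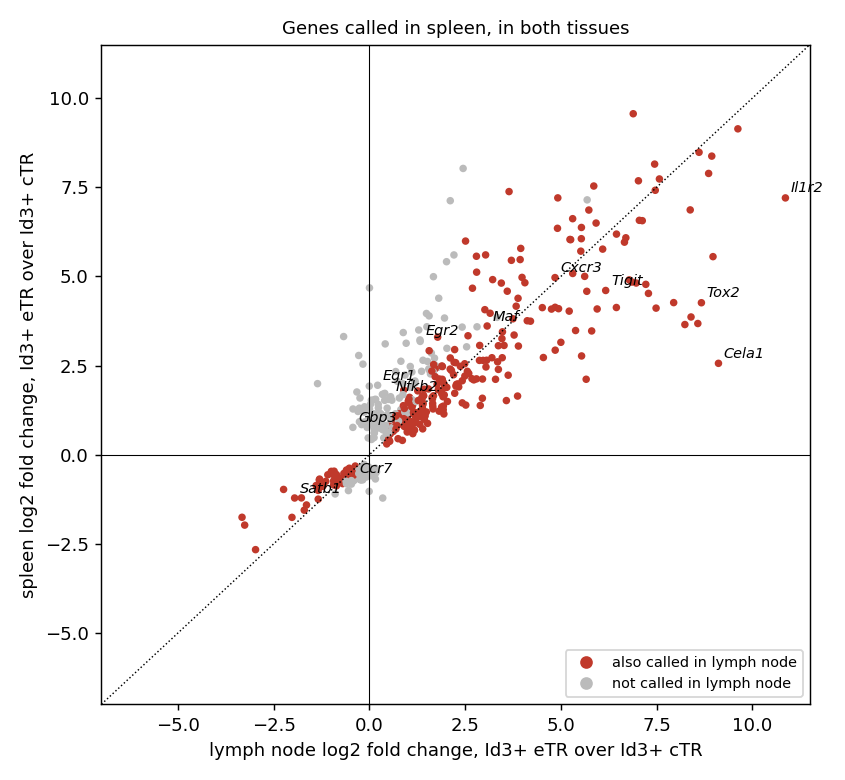
Log2 fold change of Id3+ eTR over Id3+ cTR in spleen (y axis) against that in lymph node (x axis) for the 538 genes called in spleen; red points were also called in lymph node, and the dotted line marks equal change. The genes were chosen by their spleen values; 491 of them have the same sign in both tissues, and none was called in opposite directions.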

How the data were processed

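Whole-number counts per gene were deposited by the authors without normalization for 37991 genes in 18 libraries. Per the submitters' processing notes, SAMtools, Picard, FastQC, TopHat, Bowtie and HTSeq 0.4.1 were used. No build of the genome is given in the sources used here. A second table of normalized values was not used here. Symbols came from GENCODE M21 for 32919 gene IDs (the other 5072 held 0.891% of counts).

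Genes were kept by filterByExpr (minimum count 10), which left 12445. A gene with 0 counts in a group passed this filter only through other groups. A gene near 0 in Id3+ cTR could be called only as higher, and such genes are part of the list counts. Libraries were scaled by TMM, and all 18 libraries entered 1 model of 6 groups (residual degrees of freedom 12) in edgeR 4.0.16 (robust quasi-likelihood F test, two-sided) in R 4.3.3. Benjamini-Hochberg adjustment ran over the whole set of tested genes, and "called", "rose" and "fell" mean an adjusted p under 0.05. Values after ± beside a log2 change are standard errors worked back from the change and its F statistic (median 0.315). They are approximate, most of all at low counts. CPM use TMM-scaled totals, log2 CPM a prior count of 2. The biological coefficient of variation was 0.294. Where a group had 0 counts, the fold is set against 3 counts over the group, and with 1 to 3 counts the ratio has a 95% counting interval; both cover counting error only. In simulated data with 200 of 12141 genes changed, this contrast called 29.9% of 2-fold and 60.6% of 4-fold changes. There were 4 false calls among 93, and 0 calls with nothing changed. These rates describe the simulated data alone. They were not tested with a library that stands apart from its partners, as was seen in Id3+ eTR. The share of false calls among the real calls is therefore not known from them.

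Libraries with 1 mouse number came from the same animal, per the labels. Deviations of same-numbered Id3+ eTR and Id3+ cTR libraries correlated at -0.03, -0.01 and 0.02 across genes. The mouse was left out of the main model and added as a block in an alternative. The others were RLE size factors, no filter, DESeq2 1.42.0, limma-voom (limma 3.58.1), the 6 libraries alone, and libraries left out. The members and gene lists were chosen with earlier results of these data known. The named genes are the sort genes, the E and Id proteins, up to 3 called members per list with the largest change, 8 called genes in each direction outside the lists, 5 genes by the tissue difference, and 5 each way in the Id3+ eTR library of mouse 84; other genes are said to be named after their values were seen, or complete a count. List counts without libraries were added after seeing the data. Several lists share genes. Some single-gene results, among them 1 sort gene, are not reported here.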

Additional observations from a re-analysis of the deposited data

How the results depend on the processing

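The counts of genes called in spleen (538; 365 higher, 173 lower) stayed within 1.5 times under RLE size factors, no filter and the mouse as a replicate block (448; 330 higher, 118 lower; 423 shared with the main model). DESeq2 called 1025 (659 higher, 366 lower) and limma-voom 245 (140, 105). The 6 libraries alone gave 145 (114, 31), and 85 (80, 5) with the replicate block. Asking also for a 2-fold change left 309 (295, 14). With single libraries or a mouse left out, calls ran from 214 to 741, higher from 187 to 453 and lower from 27 to 344. Without the 3 libraries named in the report there were 69 (66, 3), of which 60 were shared. The cause of these shifts was not tested, except that fewer samples enter the fits with libraries left out. The tissue difference called 90 genes by DESeq2 and 0 to 1 with libraries left out. The lymph node count of 705 ran from 337 to 542 with libraries left out. Of 62 named genes called, 12 kept the call under all 17 alternatives, and none reversed. Id2, Tcf3 and Rgs2 moved past the threshold under DESeq2, and Mipol1 without eTR 84 (adjusted p = 0.0106). In simulated data with 3 libraries per group, which did not model the number of cells, most 2-fold changes were not called. Genes not called in the real data may still differ. The low totals of 2 Id3+ cTR libraries limit values of a few CPM, where 1 count weighs 0.617 to 0.650 CPM.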

Other observations

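Genes of the cytosolic ribosome, a set chosen after its values were seen, were mostly below zero. Of 73 tested, 61 were lower in Id3+ eTR than in Id3+ cTR, with a median log2 change of -0.36, 4 were called lower and none higher. Of all genes tested, 45.2% were below zero and 1.39% were called lower. By mouse the median difference was -0.63 in mouse 84, -0.06 in mouse 86 and -0.37 in mouse 87. The median change in lymph node was -0.19. Library totals and the mitochondrial share moved with the same libraries, and their part in this was not tested.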
